A study of Mus musculus with 6 samples.

Results

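NF-Y is a heterotrimer of NF-YA, NF-YB and NF-YC, encoded by Nfya, Nfyb and Nfyc, and here its subunits were followed together with 7 genes for proteins that share the histone fold of NF-YB and NF-YC. The relatives were Dr1, Drap1, Pole3, Pole4, Chrac1, Taf6 and Taf9. The 10 genes were chosen by name, with earlier results of these data known. Every array probe whose RefSeq accession mapped to one of them was taken, which gave 13 of 55681 probes. All 10 genes passed the filter on low signal and were among 16495 genes tested. Each was well above background on all 6 arrays, and none had a saturated spot. The comparison asked whether other histone-fold genes shift along with Nfyb when Nfya and Nfyc fall.

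The RNA came from neuro2a (N2a) cells, a mouse neuroblastoma line. In the 3 control samples (Vector) the cells had received a control vector, and in the 3 knockdown samples (YAYC) with vectors that express miR RNAi against both NF-YA and NF-YC. The methods name no sorting of the transfected N2a cells before RNA was taken, and a larger share of transfected cells and a deeper loss per cell cannot be told apart. The methods name both an empty vector and a non-targeting RNAi vector as controls, and the labels say only Vector. If it was the empty one, an effect of expressing an RNAi and an effect of NF-Y loss cannot be told apart. The labels do not say whether the 3 samples of a group came from separate cultures, and p-values measure only the spread between these samples.

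NF-YB and NF-YC pair through their histone folds much as histones H2B and H2A do, and this dimer then takes up NF-YA, which reads the CCAAT box in promoters. Other histone-fold proteins also work in pairs. Dr1 and Drap1 form NC2, a repressor that sits on TATA-binding protein. Pole3 and Pole4 are the small subunits of DNA polymerase epsilon, Pole3 and Chrac1 are the histone-fold pair of the CHRAC chromatin remodeller, and Taf6 and Taf9 pair within the general transcription factor TFIID, while Taf9 also serves the coactivator SAGA.

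Because NF-Y reads CCAAT boxes, the promoters of the members were examined for the letters CCAAT on either strand, that is CCAAT or ATTGG. RefSeq promoter windows of GRCm38.p6, from 250 bases before to 50 bases after an annotated start, were at hand for 9 of the 10 members, 16 windows in all. Chrac1 had no entry. The motif was found in 3 of the 16 windows, against 37.4% of the 32851 windows of all genes. Some windows of the same gene overlap, so they are not separate. By gene, 2 of the 9 members had the motif in any window, against 41.1% of all genes. The motif occurred in 1 of 3 Nfya windows and in 2 of 3 Nfyc windows. The Nfyb window and all windows of Dr1, Drap1, Pole3, Pole4, Taf6 and Taf9 lacked these letters. One Nfyc window held 5 copies, and their first bases lay at -247, -99, -63, -25 and 15 from the start, which is counted as 1. The 3 windows printed here belong to the subunits, the first with the most copies, the next with 1 copy at -137 and the last with none. Each is written 5′ to 3′ on the strand of the gene, with the motif in capitals.
Nfyc chr4:120825160-120825459 (- strand): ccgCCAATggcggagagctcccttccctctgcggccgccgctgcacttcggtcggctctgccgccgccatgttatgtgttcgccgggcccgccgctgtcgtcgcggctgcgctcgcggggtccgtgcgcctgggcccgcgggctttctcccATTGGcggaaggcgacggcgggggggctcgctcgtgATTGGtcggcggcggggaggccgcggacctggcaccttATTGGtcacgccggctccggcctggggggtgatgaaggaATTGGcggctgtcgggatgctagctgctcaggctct
Nfya chr17:48400531-48400830 (- strand): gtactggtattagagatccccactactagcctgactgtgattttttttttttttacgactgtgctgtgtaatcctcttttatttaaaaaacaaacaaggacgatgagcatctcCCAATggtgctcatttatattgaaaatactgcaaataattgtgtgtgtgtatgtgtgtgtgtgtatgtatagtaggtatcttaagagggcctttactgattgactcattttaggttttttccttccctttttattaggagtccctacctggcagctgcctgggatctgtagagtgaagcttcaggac
Nfyb chr10:82764092-82764391 (- strand): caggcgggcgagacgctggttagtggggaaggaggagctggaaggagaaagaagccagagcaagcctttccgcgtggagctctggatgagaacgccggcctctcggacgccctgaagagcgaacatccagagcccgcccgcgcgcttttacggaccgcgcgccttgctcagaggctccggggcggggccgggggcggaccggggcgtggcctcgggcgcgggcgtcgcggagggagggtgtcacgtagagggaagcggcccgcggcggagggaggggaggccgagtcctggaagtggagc

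Signal is given as the log2 of the scanner's processed signal minus the log2 of the 75th percentile of the same array, so that 0 marks a spot at that percentile. The percentile lay between 718 and 754 intensity units, and 61.9% to 66.2% of spots were well above background. A gene was called when its limma adjusted p was below 0.05 and its fold change above 1.5, and a change is the log2 signal of knockdown minus that of control. Signals of different probes cannot be ranked against each other. Of 15 neuronal and neuroblastoma marker genes, 14 were well above background on all 6 arrays, and Nefl was the exception. Of the 14 tested, 6 were lower and 3 higher at the adjusted p alone, against 15.8% of all genes tested in each direction. Th was called lower, as were 5% of all genes. Of 7 markers of blood, glial, connective tissue, endothelial and epithelial cells, 5 were well above background on all 6 arrays and Epcam on 0. The summed signal of these 7, as a ratio to the 75th percentile, was 0.574 to 0.622 on the control and 0.524 to 0.534 on the knockdown arrays. That of the 14 neuronal markers was 324 to 336 and 299 to 307. The sums come from different probes and numbers of genes, so they do not measure the share of other cells. At the adjusted p alone 2 of the 7 markers of other cells were lower, against 15.8% of all genes. Of these 2, 1, Col1a1, was called lower, against 5% of all genes. The part of these marker changes in the results was not tested.

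Nfyc fell the furthest of the members. Its normalized signal with probe A_66_P133202 was 4.0, 3.93 and 3.98 on the control arrays and 2.12, 2.20 and 2.18 on the knockdown arrays. All 3 knockdown arrays lay far below the lowest control. The change was -1.81 (SE 0.045), which left 28.6% of the control signal (95% confidence interval 26.4% to 30.9%, limma adjusted p 0.000323). With the other Nfyc probe, A_55_P2061456, the control values were 1.18, 1.20 and 1.23 and the knockdown values -0.58, -0.68 and -0.54. Both probes thus gave nearly the same loss, -1.81 and -1.80. Of all genes tested, 0.57% had a larger change in either direction.

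Nfya, the subunit that contacts the CCAAT box, fell less. Normalized signal of its single probe, A_52_P550049, was 0.14, 0.15 and 0.21 on the control arrays and -0.66, -0.52 and -0.59 on the knockdown arrays. The groups did not overlap, and knockdown replicate 1 was the lowest. The change was -0.76 (SE 0.055), which left 59.1% of the control signal (95% confidence interval 53.7% to 65.1%, limma adjusted p 0.00128). The intervals of Nfya and Nfyc did not overlap. The probe is named by 1 of several Nfya transcripts, and its position among the Nfya exons was not analysed here, so the long and short splice forms were not told apart.

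Nfyb, the subunit that was not targeted, rose on every probe. Normalized signal of probe A_55_P1975456 was 1.0, 1.05 and 1.18 on the control arrays and 1.91, 1.90 and 1.92 on the knockdown arrays. The knockdown arrays lay close together, with an SD of 0.013, while the controls had an SD of 0.094 and control replicate 3 was the highest of them. The change was 0.83 (SE 0.060), or 178% of the control signal (95% confidence interval 160% to 198%, limma adjusted p 0.00131).

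The other Nfyb probes were read separately. Probe A_52_P239707 gave 0.52, 0.52 and 0.67 on the control arrays and 1.47, 1.48 and 1.54 on the knockdown arrays. Probe A_55_P2017476 gave -0.041, -0.21 and -0.073 on the control arrays and 0.85, 0.83 and 0.80 on the knockdown arrays. Each of these probes changed by 0.93, with limma adjusted p of 0.000973 and 0.000932, and in none of the 3 probes did the groups overlap. Of all genes tested, 6.76% had a larger change than Nfyb in either direction. The rise stood between 0.71 and 0.90 over 20 alternative settings, and its limma adjusted p between 1.62e-06 and 0.0247.

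**Figure D1:**
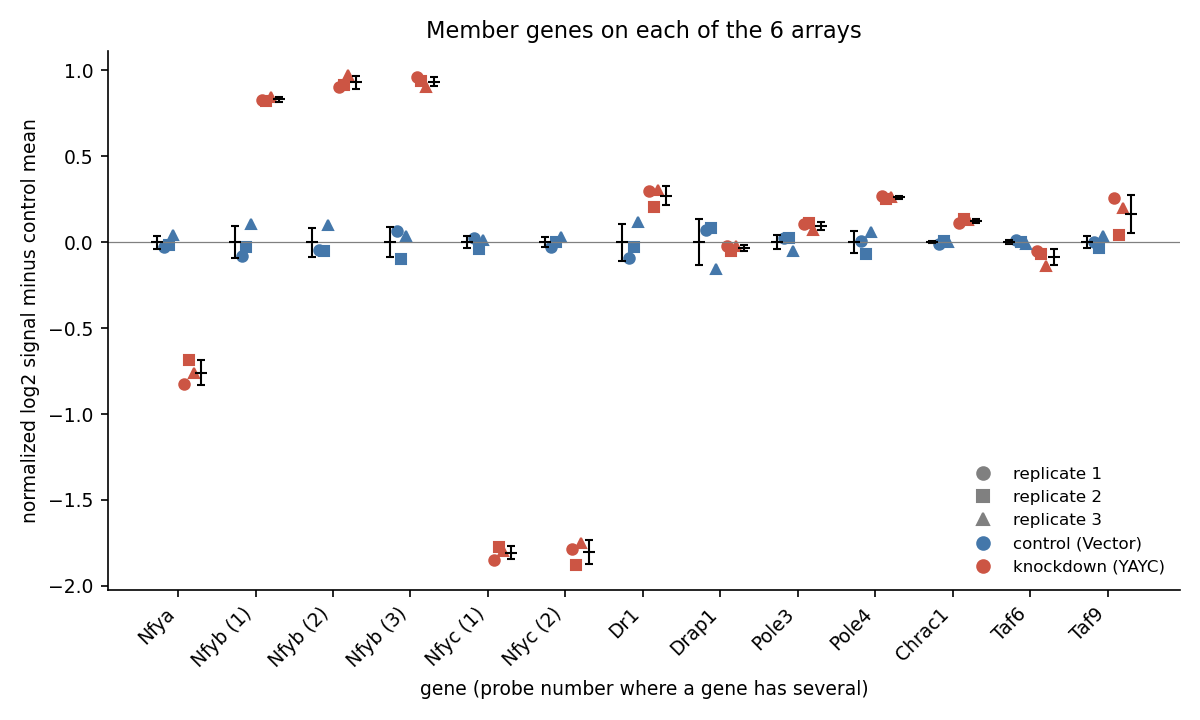
Normalized log2 signal of each member probe on each array, minus the mean of the control arrays. Blue points are the 3 control and red points the 3 knockdown arrays, marker shapes give the replicate number, and black bars are the mean ± SD (n = 3). The 3 Nfyb probes rose by 0.83 to 0.93 and the 2 Nfyc probes fell by 1.81 and 1.80, while the relatives stayed within 0.31 of the control mean on every array.

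Among all 10 members, 2 genes were called lower, against 5% of all genes tested, and 1 gene was called higher, against 3.9% of all genes tested. These were Nfya and Nfyc, both targeted, and Nfyb. By limma none of the 7 relatives was called in either direction, against 8.9% of all genes. An unadjusted limma p under 0.05 was found for 3 of the 7, against 7615 of all 16495 genes tested. At the adjusted p alone 1 of the 7 relatives, or 14.3%, passed, against 31.5% of all genes tested. This count depended on the setting. Over the 19 alternatives that change the fit it was 0 in 8, 1 in 2, 2 in 4, 3 in 3 and 4 in 2, while the share of all genes that passed ranged from 11.5% to 42.0%. The relatives that passed in any alternative were Pole4, Dr1, Chrac1 and Taf9, all higher in knockdown. With an intensity trend in eBayes these 4 of 7 passed, against 42.0% of all genes, and under normexp with quantile normalization the same 4 passed, against 37.4%. All 7 were well above background, while the genes tested include dim ones. With only probes well above background in at least 1 group, 3 of the 7 passed, against 40.7% of the genes kept. By sign 5 relatives were higher and 2 lower in knockdown. The median size of the change, without its sign, was 0.12 over the relatives and 0.20 over all genes tested. With its sign the median was 0.12 and 0.0054. All 95% confidence intervals of the relatives lay between -0.23 and 0.45, inside the bounds of the 1.5-fold call, and below the lower bound of 0.68 for Nfyb.

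Neither gene of the NC2 pair passed the adjusted p, and the difference between them was not tested. Dr1, the beta subunit, had 1.12, 1.18 and 1.33 on the control arrays and 1.5, 1.41 and 1.51 on the knockdown arrays. The groups did not overlap, but control replicate 3 came within 0.088 of the lowest knockdown array. The Dr1 change was 0.27 (SE 0.071, limma adjusted p 0.0513), and it was not called. It passed in 9 of 20 alternatives, with a lowest limma adjusted p of 0.00549 and a highest of 0.383, and of the fits without 1 array it passed without control replicate 3, at 0.33 (limma adjusted p 0.0325). Drap1, the alpha subunit, had 5.75, 5.75 and 5.52 on the control arrays and 5.65, 5.62 and 5.65 on the knockdown arrays. Its knockdown values lay among the controls, and it was the only member whose groups overlapped. The Drap1 change was -0.032 (SE 0.078, limma adjusted p 0.803), and its sign was positive after quantile normalization, at 0.040, and without control replicate 1, at 0.0046, or control replicate 2, at 0.0087.

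The 3 polymerase epsilon and CHRAC subunits were slightly higher by sign. Pole4 had 2.26, 2.19 and 2.32 on the control arrays and 2.52, 2.51 and 2.52 on the knockdown arrays. The knockdown arrays stood together above all controls. The Pole4 change was 0.26 (SE 0.049), or 120% of the control signal (95% confidence interval 110% to 131%, limma adjusted p 0.0185), and Pole4 was the relative that passed the adjusted p alone. It passed in 12 of 20 alternatives, among them the minimum fold change of 2, which leaves the fit unchanged. Of the fits without 1 array, it passed only without control replicate 3, and limma adjusted p over these fits ranged from 0.0297 to 0.0688 at changes of 0.23 to 0.29. Scaling on the median took the Pole4 change to 0.14 (limma adjusted p 0.317).

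Pole3, which pairs with Pole4 and with Chrac1, differed less. It had 1.17, 1.17 and 1.09 on the control arrays and 1.25, 1.25 and 1.21 on the knockdown arrays. The groups did not overlap, with a gap of 0.044. The Pole3 change was 0.095 (SE 0.044, limma adjusted p 0.191), and scaling on the median turned it to -0.021. Chrac1 had 2.16, 2.17 and 2.17 on the control arrays and 2.27, 2.30 and 2.29 on the knockdown arrays, both narrow groups that stood apart. Its change was 0.12 (SE 0.038, limma adjusted p 0.0737). Over the 20 alternatives the change was lowest with scaling on the median, at 0.0076. Several alternatives, such as the filters on dim probes and the replicate block, cannot move the change of a gene with a single probe. Chrac1 passed in 5 of the 20, with limma adjusted p from 0.0168 to 0.954.

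The TFIID pair had opposite signs, with neither gene past the test, and the difference between them was not tested. Taf6 had 4.73, 4.72 and 4.71 on the control arrays and 4.67, 4.66 and 4.58 on the knockdown arrays, so that all knockdown arrays were lower. The Taf6 change was -0.086 (SE 0.044, limma adjusted p 0.234). Taf9 had 5.18, 5.14 and 5.21 on the control arrays and 5.44, 5.22 and 5.38 on the knockdown arrays. Knockdown replicate 2 lay close to the highest control, and the Taf9 change was 0.17 (SE 0.069, limma adjusted p 0.158). Taf9 passed in 2 of 20 alternatives, at 0.23 under normexp with quantile normalization (limma adjusted p 0.0145) and at 0.17 with an intensity trend (limma adjusted p 0.0380). In RefSeq Taf9 overlaps Ak6 and Taf6 overlaps Ap4m1. The Ak6 probe changed by 0.13 (limma adjusted p 0.136), while Ap4m1 was called higher at 0.67 (limma adjusted p 0.00127). Nfyb overlaps Hcfc2, which changed by 0.13 (limma adjusted p 0.198). Whether any probe lies in shared sequence was not tested.

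In all, 9 of the 10 members had groups that did not overlap, as did 54.7% of all genes tested. The difference between Nfyb and each relative was then tested directly, on the difference of their normalized signals per array. The Nfyb change exceeded that of each of the 7 relatives, by 0.56 against Dr1, 0.57 against Pole4, 0.67 against Taf9, 0.71 against Chrac1, 0.74 against Pole3, 0.86 against Drap1 and 0.92 against Taf6. In each of the 7 comparisons the 3 knockdown arrays lay above all 3 controls, and the two-sided exact permutation p was 0.1, also 0.1 after Benjamini-Hochberg adjustment. This is the smallest p that the permutation test can give with 20 assignments of the arrays, so this test cannot go below 0.05. All 7 comparisons share the same Nfyb values, so they are not 7 separate observations.

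**Figure D2:**
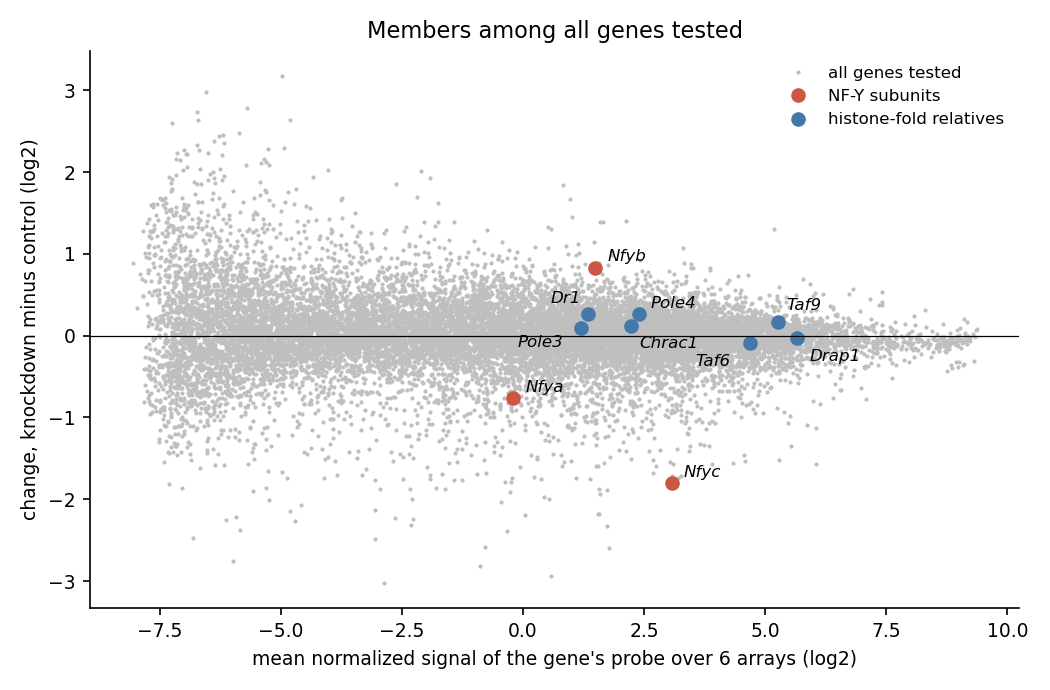
Change (knockdown minus control, log2) against mean normalized signal (log2, over 6 arrays) for every gene tested, in grey, with the NF-Y subunits in red and the relatives in blue. The subunits stand at -1.81, -0.76 and 0.83, and the 7 relatives lie between -0.086 and 0.27, within the cloud of genes of similar signal.

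Further histone-fold genes were examined to see whether the small differences of the relatives were shared. Their lists were drawn up with earlier results of these data known, so the counts are descriptive. Of 13 histone-fold subunits of TFIID and SAGA, 1 was called higher and none lower, against 3.9% and 5% of all genes tested. At the adjusted p alone 4 were higher and 2 lower, against 15.8% of all genes in each direction, and 7 did not pass. Of 5 centromeric and Fanconi histone-fold proteins none was called by limma, against 8.9% of all genes tested. At the adjusted p alone 1 was higher and 1 lower, against 15.8% of all genes in each direction. An unadjusted limma p under 0.05 was found for 4 of the 5 and for 10 of the 13 TFIID and SAGA genes, against 7615 of all 16495 genes tested. Together 8 of these 18 genes, or 44.4%, passed the adjusted p alone, in both directions, against 31.5% of all genes. Their median change was 0.064, against 0.0054 over all genes tested. All 18 were well above background on all 6 arrays, while the 16495 genes include dim ones. With only probes well above background in at least 1 group, 40.7% of the genes kept passed the adjusted p. The count of the 18 was not taken in that setting.

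Taf8, which pairs with Taf10 in TFIID, was the called gene. It had 1.75, 1.70 and 1.77 on the control arrays and 2.46, 2.46 and 2.43 on the knockdown arrays. The groups stood well apart, and the Taf8 change was 0.71 (SE 0.042, limma adjusted p 0.00078). Taf10 itself was lower, at -0.26 (limma adjusted p 0.0164), and its other probe changed by -0.22. Taf3, also a histone-fold partner of Taf10, was higher, at 0.40 (limma adjusted p 0.0083), and its other probe gave 0.39.

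Taf9b, a paralog of Taf9, was higher by 0.48 (limma adjusted p 0.0023). Taf4 was higher by 0.43 (limma adjusted p 0.0247), while its histone-fold partner Taf12 differed by 0.0035 (limma adjusted p 0.962). The Taf4 difference did not pass without control replicate 1 or 2, at 0.38 and 0.40, or without knockdown replicate 1, 2 or 3, at 0.44, 0.45 and 0.40. It also did not pass with scaling on the median, at 0.31, or with the slide row as a block, at 0.41. Taf3 did not pass in these last settings either, at 0.28 and 0.44.

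Non-histone partners of the members were read as a separate group of 6 genes, of which 1 was called lower, against 5% of all genes tested. Another 1 was higher at the adjusted p alone and 4 did not pass, where 31.5% of all genes passed. Btaf1, an ATPase that removes TATA-binding protein from DNA, had 0.76, 0.83 and 0.73 on the control arrays and 0.24, 0.068 and 0.16 on the knockdown arrays. All knockdown arrays were lower, and the Btaf1 change was -0.62 (SE 0.063, limma adjusted p 0.00316). It kept a limma adjusted p below 0.05 in 20 of 20 alternatives, among them the minimum fold change of 2, which leaves the fit unchanged. The Btaf1 change fell short of 1.5-fold under both normexp corrections, at -0.58 and -0.56. It also did so with the slide row as a block, at -0.53, and without knockdown replicate 2, at -0.57. Pole2, a polymerase epsilon subunit, was higher by 0.33 (limma adjusted p 0.00716), and did not pass with scaling on the median, at 0.21, or the slide row block, at 0.36. Tbp, Pole, Smarca5 and Baz1a did not pass, with changes of 0.019, 0.057, -0.12 and -0.16. The probes of Baz1a, a remodeller subunit, disagreed. Besides the probe that stood for the gene, one gave -0.14 (limma adjusted p 0.157) and one, A_66_P139196, gave -0.52 (limma adjusted p 0.00681). The other Pole probe gave 0.32 (limma adjusted p 0.188).

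**Figure D3:**
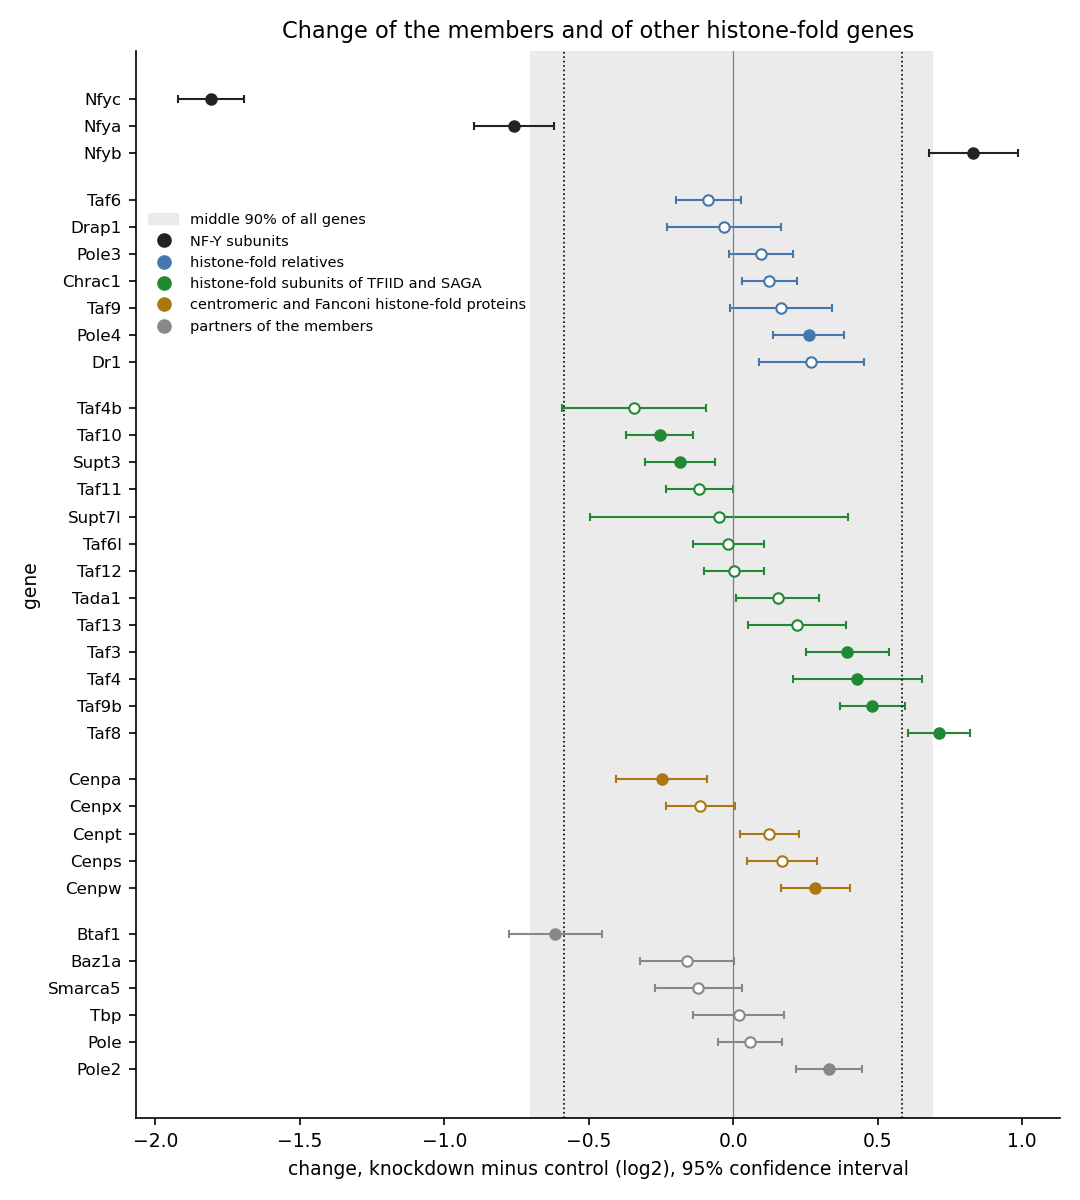
Change (knockdown minus control, log2) with its 95% confidence interval for the members, the other histone-fold genes and partners of the members, filled where the limma adjusted p was below 0.05. Dotted lines mark 1.5-fold and grey covers the middle 90% of all genes, from -0.70 to 0.69. The 3 subunits and Taf8 lie outside the grey range.

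The genes whose profile over the 6 arrays was most like that of each subunit were sought among 13959 genes well above background on all arrays, by the root mean square difference of the profiles after each was centred on its own mean. With 6 arrays in 2 groups this measure mostly follows the size of the change. For Nfyb they were Gm10406, Cavin2 and Arid1b, with root mean square differences of 0.035, 0.037 and 0.038 and changes of 0.83, 0.80 and 0.78. For Nfya they were Kctd11, Reep3 and Col16a1, at differences of 0.022, 0.034 and 0.036 and changes of -0.78, -0.77 and -0.79. For Nfyc they were Optc, Nap1l5 and Atp2c1, at differences of 0.042, 0.051 and 0.061 and changes of -1.79, -1.75 and -1.74. Probes of some of these genes disagreed. The other Reep3 probe changed by -1.81, and the mean of the Reep3 probes was -1.29. One of the other Arid1b probes gave 0.34 (limma adjusted p 0.203). As the mean of all its tested probes Kctd11 was not called, at -0.41, and under normexp with scaling on the 75th percentile it fell short of 1.5-fold, at -0.58.

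The slide position of the arrays moved in part with the groups. Control arrays and knockdown replicate 1 lay in 1 slide row, and knockdown replicates 2 and 3 in the other. With the slide row as a block, which compares knockdown replicate 1 with the controls of its row, the changes were -1.85 for Nfyc, -0.83 for Nfya and 0.83 for Nfyb, and all 3 stayed called (limma adjusted p 0.0115, 0.0163 and 0.0247). Under this block Pole4 was 0.27 (limma adjusted p 0.118) and did not pass, and Taf9 was 0.26 (limma adjusted p 0.169).

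**Figure D4:**
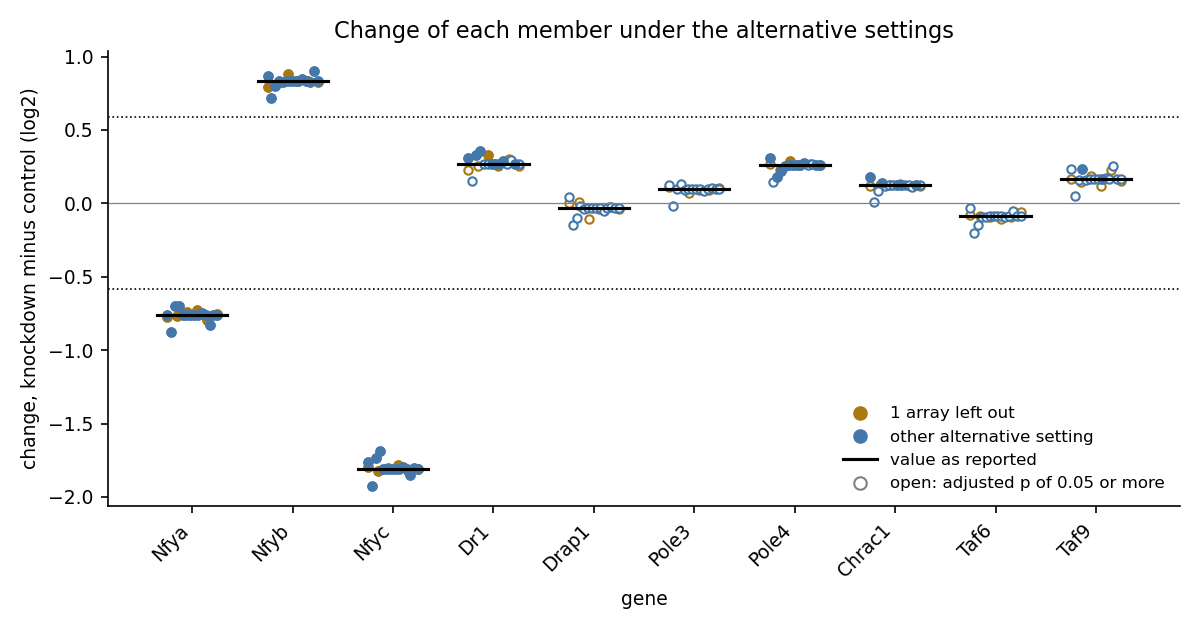
Change of each member (knockdown minus control, log2) under 20 alternative settings. Ochre points leave out 1 array each, blue points are the other alternatives, open points have a limma adjusted p of 0.05 or more, black lines are the values as reported, and dotted lines mark 1.5-fold. Nfya, Nfyb and Nfyc stayed past 1.5-fold with filled points throughout, and no relative reached 1.5-fold in any setting.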

How the data were processed

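Gene expression was measured on 6 single-colour (Cy3) Agilent mouse arrays, 3 per group, with groups and replicate numbers from the sample titles. Scans were extracted by the authors with Agilent Feature Extraction (version 10.10.1.1). Their deposited intensity values carry the background correction of that software and no normalization between arrays. The deposited series matrix holds log2 values with a constant taken off each probe, and its scale was read from the scanner tables, which it matched within 0.0076 for probes with a single spot. The methods name GeneSpring as the software of the study, with genes under the 20th percentile removed.

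Control spots and outlier spots were left out. The processed signal was scaled on the 75th percentile of non-control spots, put on the log2 scale and averaged over spots of a probe. Probes had to reach the 20th percentile on all 3 arrays of a group, which left 42131 of 55681, with 245 lacking a value. RefSeq symbols (GRCm38.p6) were found for 25869 of the 26392 probes that carry a curated mRNA accession. The array annotation names another build, so coordinates of genes and probes are not given, and those of the promoter windows are RefSeq's own. Where several probes matched, the one of highest mean signal stood for the gene. The contrast was fitted in limma (version 3.58.1, R 4.3.3; lmFit and eBayes, two-sided, no covariates). P-values were adjusted by Benjamini-Hochberg over all tested probes, and the procedure was tested on simulated data. There, changes were added to probes drawn from all those tested, dim ones among them. The shares that follow were not taken for the members, which were all well above background. The adjusted p was passed by 42.4% and 39.4% of changes of -0.5 and 0.5. For -1 and 1 it was 61.8% and 51.5%, and for -2 and 2 it was 73.5% and 75.8%. Confidence intervals are at 95% and unadjusted. Normexp (offset 50) used the median spot signal, since the scanner tables as given here have no mean signal. The number of arrays limits the precision.

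The members and lists were chosen with earlier results of these data known. The genes named are the 10 members, the called genes of the lists and the largest other changes past the adjusted p up to 6 in all, and 3 genes of similar profile for each subunit. Th, Col1a1, Epcam, Nefl, Taf10, Taf12, the partners that did not pass and the genes overlapping members were named after their values were seen.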

Additional observations from a re-analysis of the deposited data

How the results depend on the processing

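Over 20 alternatives Nfyc ranged from -1.92 to -1.69, Nfya from -0.88 to -0.70 and Nfyb from 0.71 to 0.90, and all 3 were called in each, except that a minimum fold change of 2 took the calls of Nfya (-0.76) and Nfyb (0.83), leaving 1 member called lower and 0 higher by limma, and 286 and 181 genes in all. Drap1 was positive after quantile normalization, at 0.040, and ranged from -0.11 to 0.0087 with 1 array left out, and Pole3 was -0.021 with scaling on the median. Members past the adjusted p alone rose from 4 to 7 under normexp with quantile normalization and to 7 with an intensity trend in eBayes. The share of all genes past it rose from 31.5% to 37.4% and 42.0% in these settings. Relatives past the adjusted p alone went from 1 to 0 with scaling on the median, the replicate block and the slide row block. There 20.4%, 17.7% and 11.5% of all genes passed. The count went to 2 under normexp with scaling on the 75th percentile, the 20th percentile on all 6 arrays and array weights, against 35.4%, 34.8% and 32.8% of all genes. It went to 3 after quantile normalization, with probes well above background in a group and with the mean of all tested probes, against 33.8%, 40.7% and 40.2%. It went to 4 under normexp with quantile normalization and with the intensity trend, against 37.4% and 42.0%. With 1 array left out it ranged from 0 to 2, against 19.9% to 24.7% of all genes. Genes called higher fell from 644 to 382 with scaling on the median, 275 under normexp with scaling on the 75th percentile and 282 under normexp with quantile normalization. The lower share of all calls was 56.1%, and 75.5%, 68.0% and 66.4% under these 3 settings. Scaling on the median moved the median change of all genes from 0.0054 to -0.11, and the other scalings kept it within 0.019 of 0. The cause of these differences was not tested. With the replicate block, members past the adjusted p alone went from 4 to 3, since Pole4 at 0.26 did not pass (limma adjusted p 0.0650), and the block changed no call of a member at 1.5-fold. Same-numbered arrays shared only a number, with correlations of their deviations from the group means of 0.0024 to 0.067. Of the control arrays, replicates 1 and 2 correlated best with their own number in knockdown and replicate 3 with replicate 1.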
